A study of Sus scrofa with 48 samples.

Results

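Circular RNAs (circRNAs) made from the genes PSD3, GORASP2, SEC24A and TBC1D22A were examined in seminal plasma extracellular vesicles (SPEVs) of boars. The members were chosen by a rule that named 5 circRNAs, among them some of the most abundant in these libraries, so their levels were used to choose them and are given as a description. The rule added every circRNA that shares a back-splice start or end with one of the 5, which gave 22 of the 17379 circRNAs of the table. Of the 22, 3 were from PSD3, 3 from GORASP2, 10 from SEC24A and 6 from TBC1D22A. The data were 24 long RNA libraries, 1 per boar, of boars whose breed is Yorkshire in the labels and large white in the study's methods. In the H group were 12 boars whose sperm motility was high, and in the L group 12 in which it was low. All were sexually mature males aged 14 to 36 months, and the labels name no treatment or genotype that sets the groups apart. The vesicles were pelleted by ultracentrifugation and filtered, so each library pools vesicles of every cell that sheds them into seminal plasma. The question was whether the circRNAs carried by the vesicles differ between boars of high and low sperm motility.

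A circRNA forms when the end of an exon is joined backwards to the start of the same or an earlier exon, and the resulting ring has no free ends and resists exonucleases. The proteins of the 4 genes work on membrane traffic. PSD3 is an exchange factor that loads ARF6, a small GTPase of the plasma membrane and endosomes, with GTP. GORASP2, also known as GRASP55, links the stacked cisternae of the Golgi. SEC24A is the subunit of the COPII coat that picks cargo leaving the endoplasmic reticulum, and TBC1D22A carries a TBC domain, the fold of proteins that switch off Rab GTPases. Pairing of inverted repeats in the introns on both sides of an exon is known to favour back-splicing.

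The sequences at the back-splice define each circRNA, so they are shown first, read from Sscrofa11.1 at the deposited positions. The circRNA of GORASP2 (chr15:77126133-77127562, plus strand) joins exon 9 back to exon 8 of the 11 exons of XM_021074828.1 and is short enough to be printed whole. It is shown from the first base of exon 8, with the last 10 bases before the back-splice in capitals.
GORASP2 exons 8 to 9: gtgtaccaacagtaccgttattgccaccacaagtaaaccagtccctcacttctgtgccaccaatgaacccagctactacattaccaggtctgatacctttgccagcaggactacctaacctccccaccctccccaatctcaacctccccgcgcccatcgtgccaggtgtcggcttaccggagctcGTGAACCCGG

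The circle of GORASP2 has 195 bases (exons of 87 and 108 bases), all of them coding, and their number is a multiple of 3. The exons lie after the GRASP domains of the protein. One other member ended at the same base and began 18 bases further upstream, at another AG dinucleotide inside the intron. The 50 bases around both starts are printed because that is the only member, 1 of 22, with an end that is not on an annotated exon edge. Capitals mark the first 12 bases of exon 8.
GORASP2 intron 7 into exon 8: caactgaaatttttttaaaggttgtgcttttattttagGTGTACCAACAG

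The other 4 of the 5 circRNAs are shown as 60 bases across the junction, with the last 30 bases before the back-splice in lower case and the first 30 after it in capitals. They are printed with the most often detected circRNA that shares an end with each, so that the shared stretch can be seen.
PSD3 exons 7 to 11: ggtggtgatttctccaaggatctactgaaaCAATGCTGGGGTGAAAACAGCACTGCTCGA
PSD3 exons 7 to 10: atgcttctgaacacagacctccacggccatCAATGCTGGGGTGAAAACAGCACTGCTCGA
SEC24A exons 6 to 7: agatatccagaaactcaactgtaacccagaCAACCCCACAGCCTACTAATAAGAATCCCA
SEC24A exons 6 to 12: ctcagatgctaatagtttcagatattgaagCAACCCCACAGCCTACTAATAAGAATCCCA
TBC1D22A exons 7 to 9: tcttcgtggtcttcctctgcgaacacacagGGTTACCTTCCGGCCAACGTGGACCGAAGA
TBC1D22A exons 7 to 10: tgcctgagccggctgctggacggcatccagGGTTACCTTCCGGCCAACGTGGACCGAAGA

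The pair from PSD3 (chr17:13008092-13031589 and chr17:13008092-13012850, plus strand) begins at exon 7 of the 18 exons of XM_021077989.1. One ends at exon 11 and holds 538 spliced bases, and the other ends at exon 10 and holds 448. Both cover exons for part of the Sec7 domain, the part of PSD3 that acts on ARF6. The circRNA of SEC24A (chr2:136907206-136907907, plus strand) joins exon 7 to exon 6 of the 24 exons of XM_005655003.3 and has 334 bases. The circRNA of TBC1D22A (chr5:2675422-2692132, minus strand) joins exon 9 to exon 7 of the 14 exons of XM_021091361.1, has 307 bases and covers part of the TBC domain. In 21 of the 22 members both ends fell on the edges of annotated exons, against 83.2% of all circRNAs of the table.

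The flanking introns of the 5 differed from one another. Shares are of the 14462 circRNAs with both ends on exon edges. Within 1000 bases on each side, the longest stretch whose reverse complement lay on the other side was 32 bases for GORASP2, and 2.5% of these circRNAs had one at least as long. It was 21 bases for SEC24A (14.0% at least as long), 10 bases for both circRNAs of PSD3 (90.7%) and 9 bases for TBC1D22A (99.7%), where the median of the 14462 was 12. The intron after PSD3 exon 11 measured 114633 bases, a length reached by 0.6% of those with an annotated intron there, and that after TBC1D22A exon 9 measured 37418 bases (4.7%). The introns on both sides of the SEC24A circle were short, at 1125 and 1273 bases. A match of letters is a description and was not tied to the level of any circRNA.

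The libraries held 149468 to 610615 junction reads in the H group and 128644 to 593023 in the L group. They held 956 to 2742 circRNAs in the H group and 1437 to 5716 in the L group. The 4 libraries with most circRNAs were all of the L group (L12 with 5716, L8 with 4255, L11 with 4118 and L3 with 3377). In the small RNA libraries numbered L12 and L8, the list of 6 leukocyte miRNAs summed to 7122 and 5289 CPM (reads relative to all miRNA reads of the library). It summed to 44.8 to 160 in the H group and to 72.5 to 156 in the other L libraries, L3 and L11 included. Epithelial miRNAs (4 of 6 families in the table) summed to 44142 to 116650 in the H group and 53082 to 132065 in the L group, whereas 3 red blood cell miRNAs reached at most 8.24 and 4 muscle miRNAs at most 15.9 in any library. The titles tie these small RNA libraries to the long RNA libraries by group and number only, and the labels do not state that the boar is the same. The part of leukocyte RNA in the values of L8 and L12 was not tested.

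Levels are given as RPM, the junction reads of a circRNA scaled to the same total in every library. Each circle is counted by its single junction, and the level was not scaled to the length of the circle. Whether that length affects the level was not tested. Of the 22 members, 4 had reads in all 24 libraries, as did 40 of the 17379 circRNAs, and 4 members were found in 1 library only. Together the members took 1.35% to 2.40% of the junction reads of H libraries and 1.15% to 2.47% of those of L libraries. No value of a member between 1 and 11 reads occurred, since the smallest value above 0 was 12 reads. In a pool of vesicles, fewer vesicles that carry a circRNA and fewer copies in each cannot be told apart.

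**Figure D1:**
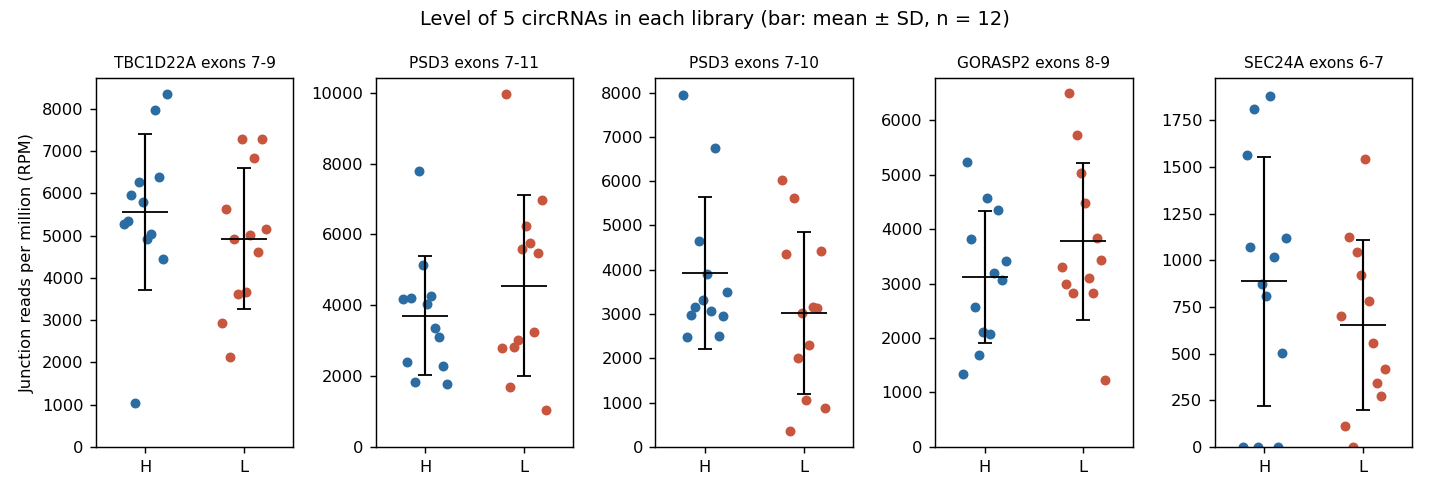
Level of each of the 5 circRNAs in each library (RPM, vertical axis, from 0 in each panel), with H libraries in blue, L libraries in red and bars for the mean ± SD of 12 libraries. The groups overlap in all 5 panels, and SEC24A is at 0 in 4 libraries.

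The circRNA of TBC1D22A had the highest level of the 22, 5246 ± 1751 RPM (SD, n = 24), rank 5 of all circRNAs. In the H group it ran from 1048 RPM in H4 through a median of 5569 to 8353 in H12. In the L group it ran from 2119 RPM in L3 through a median of 4960 to 7286 in L6. Its coefficient of variation of 33.4% was the third lowest of the 40 circRNAs found in all libraries, whose median was 52.1%. The group means of 5568 ± 1846 RPM in H and 4923 ± 1667 in L (SD, n = 12 each) lay within 1 SD of each other.

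The circRNA of PSD3 exons 7 to 11 averaged 4126 ± 2161 RPM (SD, n = 24, rank 9) and that of exons 7 to 10 averaged 3481 ± 1794 (rank 11). The longer one ran from 1770 RPM in H12 through a median of 3704 to 7799 in H5, and from 1029 in L12 through 4365 to 9956 in L2. The shorter one ran from 2474 RPM in H2 through 3236 to 7942 in H1, and from 361 in L3 through 3083 to 6024 in L1. L3 and L12 were the lowest and second lowest for both, in opposite order.

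The circRNA of GORASP2 averaged 3448 ± 1351 RPM (SD, n = 24, rank 12). It ran from 1334 RPM in H1 through a median of 3135 to 5227 in H2, and from 1228 in L12 through 3374 to 6507 in L3. The 2 ends of that order are both L libraries, and the highest of them, L3, was among the lowest for PSD3 and TBC1D22A. The coefficient of variation was 39.2%, rank 8 from the lowest of 40.

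The circRNA of SEC24A was lower, at 769 ± 572 RPM (SD, n = 24, rank 163), and had reads in 9 of 12 H and 11 of 12 L libraries. Its median was 946 RPM in H, with a highest value of 1881 in H8, and 627 RPM in L, with a highest value of 1541 in L7. The libraries without reads were H1, H5, H10 and L4. There, 3 reads, the limit that a count of 0 allows, would be 11.7 to 20.1 RPM, below the lowest value above 0, 110 RPM in L2. Such limits cover counting error only. Over the table, 997 of the 56805 values above 0 (1.76%) were under 10 reads, and the median of those above 0 was 80. A count of 0 therefore need not mean a level below such a limit. In the order of mean levels, TBC1D22A, the longer circRNA of PSD3, the shorter one and GORASP2 followed each other at distances of less than 1 SD, and SEC24A lay below GORASP2 by more than the SD of either.

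The L and H groups were then compared for every circRNA with enough reads. Of 956 circRNAs tested in edgeR after its read filter, 3 were called (0.314%), where a call needed an unadjusted P under 0.05 and a ratio of 1.5 or more or of 0.67 or less. None of the 956 had an adjusted P under 0.05 in edgeR (3 had an unadjusted one) or in DESeq2 (11). With other filters some passed adjustment in edgeR, 20 of 2793 with reads in at least 6 libraries (smallest adjusted P = 0.0231) and 10484 of 17379 without a filter. No member was called with the first of these and 9 of the 22 without a filter, none of them among the 5 that the rule named. An earlier analysis of these data found the test without a filter to call most circRNAs with permuted reads. Its calls are therefore no sign of a difference, and the filter is the main setting. Among the 22 members, 8 passed the filter and none was called in edgeR or DESeq2, the smallest unadjusted edgeR P being 0.278. Of the 8, 4 had a log2 fold change above 0 and 4 below, with a median of -0.02 against 0.14 over all 956.

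For GORASP2 the log2 fold change (L over H) was 0.33 with a standard error of 0.35 (P = 0.349, adjusted P = 0.9997, edgeR quasi-likelihood). Those of PSD3 pointed in opposite directions, with 0.36 ± 0.33 (SE) for exons 7 to 11 and -0.33 ± 0.36 for exons 7 to 10, and neither passed (P = 0.278 and 0.371, adjusted P = 0.9997 for both, edgeR). For TBC1D22A exons 7 to 9 it was -0.08 ± 0.28 (P = 0.789), and an interval of 2 SE on each side ran from -0.64 to 0.48. For SEC24A exons 6 to 7 it was -0.38 ± 0.89 (P = 0.671), with an interval from -2.15 to 1.40, so that a change of several fold in either direction could not have been told from none. Without the 4 libraries with most circRNAs no member was called either.

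**Figure D2:**
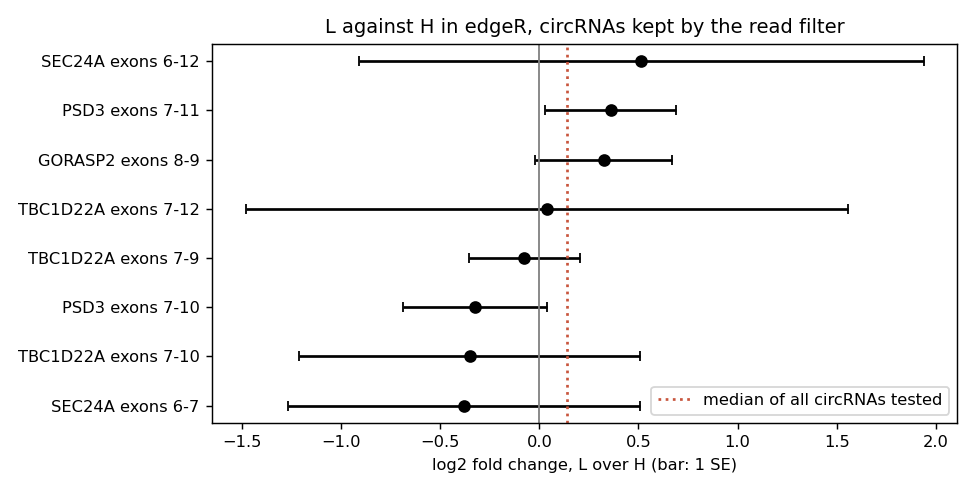
log2 fold change of L over H (horizontal axis) for the 8 circRNAs of the 4 genes that passed the read filter, with bars of 1 SE. The points lie between -0.38 and 0.51, and the dotted line is the median of all 956 circRNAs tested, 0.14.

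The pair from PSD3 shares its start, so that the share of reads that goes to each can be measured in 1 library without regard to its depth. Of all reads at that start, 56878 in total, 54.1% belonged to the circRNA of exons 7 to 11. The only other circRNA there, of exons 7 to 8, had 253 reads in 3 libraries. The share of the longer circRNA among the pair ran from 31.8% in L1 to 85.5% in L7, and the 95% Wilson intervals were 2.68 to 6.71 percentage points wide, which covers counting error only. The longer circRNA had more reads than the shorter one in 6 of 12 H and 10 of 12 L libraries.

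**Figure D3:**
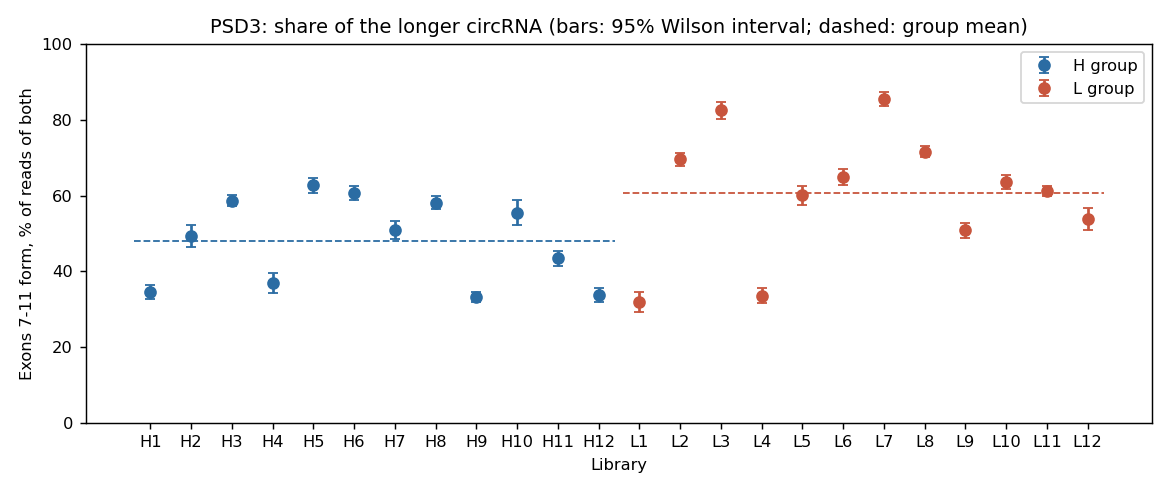
Share of the longer circRNA (exons 7 to 11) in the reads of both PSD3 circRNAs (percent, vertical axis) in each library, with 95% Wilson intervals and dashed lines at the group means of 48.1% in H and 60.7% in L. L3 and L7 are above 80%, and L1 and L4 are as low as the lowest H libraries.

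As a share of all reads at the start, the longer circRNA took 48.1% ± 11.4 in H and 60.4% ± 16.5 in L (SD, n = 12 each), with H libraries from 32.7% to 62.7% and L libraries from 31.8% to 85.5%. The difference of 12.3 percentage points had an unadjusted P of 0.0452 in a two-sided permutation test, and an adjusted P of 1.00 over the 76 start or end positions that could be tested. Of these 76 positions, 3 (3.95%) had an unadjusted P under 0.05, and none had an adjusted one. The difference kept its direction when each library was left out in turn (10.0 to 14.9 percentage points), with unadjusted P from 0.0116 without L1 to 0.0860 without L7. The unadjusted P was above 0.05 without H1, H2, H4, H7, H9, H11, H12, L2, L3, L5, L6, L7, L8, L10 or L11. Without the 4 libraries with most circRNAs it was 9.0 percentage points (P = 0.186, permutation test).

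The start of SEC24A exon 6 was used by 9 circRNAs, which ended at exon 7, 9, 10, 11, 12, 14, 17, 18 or 19. Only 5 of the 26755 start and end positions in the table were used by 9 or more, and 78.9% were used by 1. Since sharing a position was part of the rule, this number describes the members and is no test. Of the 12301 reads at the start, 53.8% belonged to the circRNA of exons 6 to 7. It had most reads in 14 of the 23 libraries with any, whereas another one led in H5, H7, H10, H12, L4, L9, L10, L11 and L12.

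The circRNA of SEC24A exons 6 to 12 (chr2:136907206-136920524, 906 bases) was the second most often detected, in 6 H and 9 L libraries, with up to 332 reads in H12. It averaged 243 ± 318 RPM in H and 322 ± 268 in L (SD, n = 12 each). Of the libraries without the circRNA of exons 6 to 7, 3 had reads for it, H5 with 12, H10 with 52 and L4 with 125. Its log2 fold change was 0.51 ± 1.42 (SE, P = 0.720, edgeR). The circRNA of exons 6 to 11 (chr2:136907206-136916014) was found in 2 H and 5 L libraries and was highest in H12 with 635 reads, above the 549 reads of exons 6 to 7 there.

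The other 6 that begin at exon 6 were each found in 1 to 4 libraries. Exons 6 to 10 had most reads of them (555, in 3 L libraries). Of all members, exons 6 to 9 had the smallest P for detection, with reads in 4 L (L3, L9, L11 and L12) and 0 H libraries (Fisher's exact test, two-sided, P = 0.0932, adjusted P = 1.00). Of the 22 members, 6 were found in L libraries only and 3 in H libraries only, where 37.8% of all circRNAs were found in L only. The last SEC24A member, exons 5 to 7 (chr2:136906003-136907907), shared only the end and had 101 reads in L9. At least 3 of the 9 were found together in 8 of 12 L and 2 of 12 H libraries. For the shared position of TBC1D22A the same count was 8 L and 6 H libraries, for PSD3 2 L and 1 H, and for GORASP2 0 in both. Over the 523 positions in the table where at least 1 library held 3 or more circRNAs, 75.1% had more such L than H libraries and 15.3% more H than L. Without the 4 libraries with most circRNAs this turned, with a larger share of such libraries in L at 130 positions and in H at 148. The 4 libraries with most circRNAs, all of them L, were among the 8 of SEC24A, and 4 of the other 8 L libraries held at least 3. Sharing a position was part of the rule, so these counts describe the members. The difference between L and H in these counts was not tested, nor was the part of the number of circRNAs in a library.

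**Figure D4:**
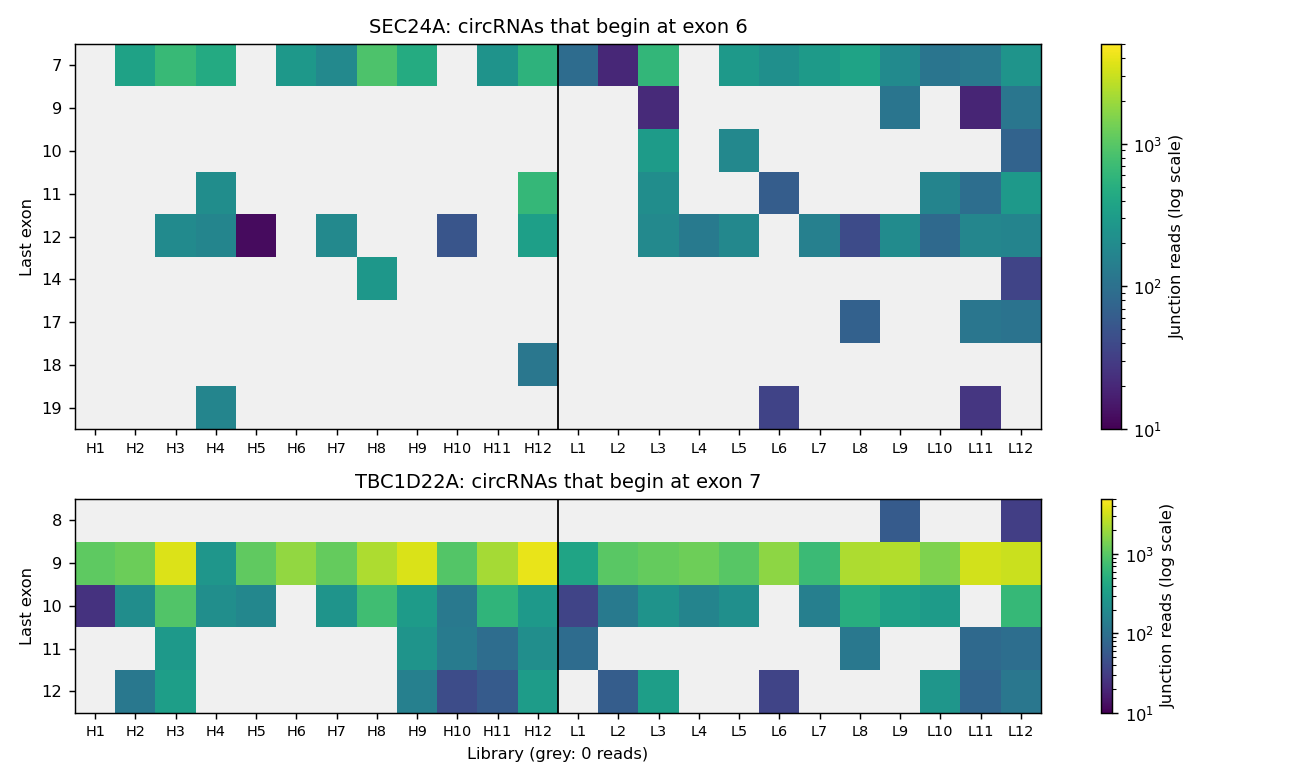
Junction reads (colour, log scale, grey for 0 reads) of the circRNAs that begin at SEC24A exon 6 and at TBC1D22A exon 7, by last exon (vertical axis) and library (horizontal axis), with H left and L right of the line. TBC1D22A exons 7 to 9 has reads in all 24 libraries, whereas SEC24A exons 6 to 7 and exons 6 to 12 leave gaps in 4 and 9.

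TBC1D22A exon 7 was the first exon of 5 circRNAs, ending at exon 8, 9, 10, 11 or 12, and 0.598% of all positions were used by 5 or more. The circRNA of exons 7 to 9 had most reads in all 24 libraries and 81.3% of the 53057 reads. Exons 7 to 10 (chr5:2637894-2692132) had reads in 11 H and 10 L libraries, at 865 ± 482 RPM in H and 642 ± 382 in L (SD, n = 12 each), and a log2 fold change of -0.35 ± 0.86 (SE, P = 0.684, edgeR). It had no reads in H6, L6 and L11. Exons 7 to 12 (chr5:2600835-2692132) had reads in 6 H and 6 L libraries and exons 7 to 11 (chr5:2619764-2692132) in 5 H and 4 L libraries. The last, exons 7 to 8, had reads in L9 and L12 only. A sixth member, exons 8 to 9 (chr5:2675422-2688900), shared the other end and had 189 reads in 2 H libraries.

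The share of exons 7 to 9 at that position was 80.3% ± 11.9 in H and 82.3% ± 8.93 in L (SD, n = 12 each, permutation P = 0.653, adjusted P = 1.00). The lowest was 54.9% in H4, the library in which TBC1D22A had its lowest level. At its shared end, the circRNA of GORASP2 took 98.5% ± 5.19 of reads in H and 99.8% ± 0.674 in L (P = 1.00, permutation test). The lowest, 82.0%, was H6, where exons 3 to 9 (chr15:77115558-77127562) had 145 reads, its only ones. Over the 76 positions tested, the SD of the leading share between libraries had a median of 16.5 percentage points, and of 25.2 over the 45 of them whose median share was under 90%. It was 15.2 for the start of PSD3, 10.3 for TBC1D22A and 3.68 for GORASP2, and the genes were not compared by a test.

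Across all 17379 circRNAs, 133 (0.765%) differed in detection between L and H at an unadjusted P under 0.05 in Fisher's exact test, none of them a member, and none passed adjustment. Of the 22 members 11 were found in more L than H libraries and 5 in more H than L libraries. Over all circRNAs, 57.3% were found in more L and 29.5% in more H libraries. Without the 4 libraries with most circRNAs, 104 circRNAs (0.598%) differed in detection, again with no member among them and none past adjustment. Of the 21 members with reads in the libraries kept, the share of libraries with reads was then higher in L for 10 and higher in H for 7. Of the 13989 circRNAs with reads in these libraries, it was higher in L for 44.5% and higher in H for 53.3%.

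Beyond the members, the 4 genes gave few reads. GORASP2 had 6 circRNAs in all, PSD3 8, TBC1D22A 8 and SEC24A 25, where the median of 5179 host genes was 2 and 0.483% had 20 or more. The members held 99.2% of the reads of GORASP2, 99.1% of PSD3, 99.5% of TBC1D22A and 86.2% of SEC24A. The most abundant circRNA outside the members was one of SEC24A (chr2:136933661-136937721, 49.2 RPM, 1 library). Summed over all circRNAs of a gene, the L group stood at 3827 ± 1443 RPM and the H group at 3159 ± 1192 for GORASP2, at 7667 ± 3618 and 7731 ± 2741 for PSD3, at 5940 ± 1627 and 6888 ± 2161 for TBC1D22A, and at 1632 ± 804 and 1728 ± 1145 for SEC24A (SD, n = 12 each). All 4 differences were below 1 SD. Without the 4 libraries with most circRNAs the L group (n = 8) stood at 3910 ± 1069 RPM for GORASP2, 8520 ± 2915 for PSD3, 5897 ± 1560 for TBC1D22A and 1480 ± 879 for SEC24A, so that the PSD3 sum turned from below to above that of the H group.

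Genes of vesicle and Golgi traffic were taken from 9 lists with 195 genes, which include PSD3, GORASP2, SEC24A and TBC1D22A. Of the other 191 genes, 110 had 467 circRNAs, which took 2.55% ± 0.537 of junction reads in H and 2.83% ± 0.520 in L (SD, n = 12 each). Of the 467, 27 passed the read filter and none was called in either direction. Their median log2 fold change was 0.39 against 0.14 over all 956, and 20 of the 27 were above 0, as were 563 of the 956 (58.9%). Among circRNAs in all 24 libraries, 5 of 40 were from these lists, 4 of them members and the fifth of TBC1D23, a Golgi protein that captures endosome-derived vesicles (997 ± 741 RPM, SD, n = 24).

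Members were the most abundant circRNAs of 4 lists, which is a description, since the members were chosen with their levels known. PSD3 led the ARF exchange factors (7 of 15 genes with circRNAs, 2 circRNAs tested), of which the next was ARFGEF2 with 143 ± 217 RPM. SEC24A led the COPII coat and endoplasmic reticulum exit genes (13 of 18 genes, 4 tested), followed by SEC13, a subunit of the outer coat, with 516 ± 426 RPM. GORASP2 led the Golgi matrix and tether genes (19 of 26 genes, 4 tested), followed by the tether GOLGA4 with 506 ± 590 RPM. TBC1D22A led the TBC domain genes (21 of 37 genes, 12 tested, 8 of them with a log2 fold change above 0).

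In the other 5 lists the leading circRNA was of another gene. Among retromer and sorting nexin genes (20 of 29 genes, 5 tested) it was that of SNX6, which coats endosomal tubules, with 2214 ± 1427 RPM in H and 2862 ± 840 in L (log2 fold change 0.44 ± 0.48 SE). ARFGAP3, a Golgi protein that makes ARF1 hydrolyse GTP, led the ARF GTPase-activating proteins (11 of 21 genes, 2 tested) with 711 ± 453 RPM in H and 1169 ± 731 in L (0.75 ± 0.77 SE). COPA, a subunit of the COPI coat of Golgi vesicles, led its list (5 of 9 genes, 2 tested) with 493 ± 539 and 725 ± 540 RPM (0.72 ± 1.03 SE). MVB12B led the ESCRT list (13 of 31 genes, 3 tested) with 363 ± 422 RPM and EXOC2 the exocyst (5 of 9 genes, 1 tested) with 207 ± 317 RPM (SD, n = 24). That of EXOC2 did not pass the read filter, and the other 4 had an adjusted P of 0.9997 in edgeR. Of the 514 circRNAs of the 9 lists, members included, 1 had a detection P under 0.05, against 133 of 17379 (0.765%) over the table. It was a second circRNA of COPA (chr4:90161231-90175000), with reads in 2 H and 8 L libraries (Fisher's exact test, P = 0.0361, adjusted P = 1.00). Without the 4 libraries with most circRNAs it had reads in 2 of 12 H and 6 of 8 L libraries (Fisher's exact test, P = 0.0194, adjusted P = 1.00).

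For each of the 5 circRNAs, the 2 circRNAs of other genes with the most similar order of RPM over the 24 libraries were looked up among those found in all libraries. GORASP2 was closest to PTGES3, a co-chaperone of HSP90 (Spearman's rho 0.67), and PRKAR1A, the regulatory subunit of protein kinase A (0.52). PSD3 exons 7 to 11 was closest to NAP1L1 (0.61) and UBAP2 (0.40). PSD3 exons 7 to 10 and TBC1D22A were both closest to LRCH1 (0.48 and 0.45) and PAN3 (0.36 and 0.43), and SEC24A to ZC3H6 (0.50) and TESK2 (0.40). These are the highest of 38 to 40 values each, all from the same libraries and totals, and are a description.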

How the data were processed

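Back-splice junction reads were measured in 24 long RNA libraries and miRNAs in 24 small RNA libraries. The members and gene lists were chosen with earlier results of these data known. The authors deposited raw counts of junction reads per circRNA. Per the study's methods and processing notes these are circRNAs on susScr11 that had 2 or more such reads and that find_circ as well as CIRI2 detected. The authors also deposited raw counts of reads per miRNA. All columns were used (0 columns had no sample). Only circRNAs seen by both tools are listed, so a 0 can be a circRNA that 1 tool missed.

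The ends were matched to exons of the NCBI annotation (release 106) of Sscrofa11.1, which is also the build behind the deposited positions, with pyfaidx 0.9.0.4, and 14462 of 17379 had both ends on exon edges. L and H counts were compared with edgeR 4.0.16 in R 4.3.3 (filterByExpr, TMM factors, quasi-likelihood test, no covariate), with P values adjusted by the Benjamini-Hochberg method. TMM moved the median log2 fold change from 0.01 to 0.14, so values are read against that median. Detection was compared by Fisher's exact test over all circRNAs, and the share of the leading circRNA at each start or end with reads in every library by a permutation test with 100000 resamples. Python 3.11.15, SciPy 1.17.1 and pandas 2.3.3 were used. Counts for L against H were also simulated for the 956 circRNAs kept by the filter, and 586 of the simulated ones passed it. Of these, 49.2% of the 118 changed by a log2 of 2 and 3.42% of the unchanged ones were called. In the data 0.314% were called, so the simulated counts differ from the data and these rates need not hold for them. Total counts of 128644 to 610615 reads per library limit the precision, and reads without molecular identifiers are not independent molecules. The libraries are 1 per boar, so P values rest on a spread in which boar, sampling and library preparation cannot be told apart.

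Named circRNAs are the 5 of the rule, those that share an end and have reads in at least 6 libraries, the one with most reads among the rest of each gene, the leader and every called circRNA of each gene list, and the 2 most similar to each of the 5. Others named, such as SEC24A exons 6 to 9, were chosen after their values were seen. The alternatives were no filter, reads in at least 6 libraries, library totals without TMM, DESeq2 1.42.0, the replicate number as a block, leaving out each library, an adjusted P threshold, detection at 10 reads and positions with 20 reads. Leaving out the 4 libraries with most circRNAs was added after the data were seen.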

Additional observations from a re-analysis of the deposited data

How the results depend on the processing

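Of 956 circRNAs tested, 3 were called, all higher in L. The number was 10517 of 17379 without a filter (6600 higher, 3917 lower), 47 of 2793 with reads in at least 6 libraries (41 and 6), 11 with DESeq2 (5 and 6), 22 with the replicate number as a block (all higher), 4 without TMM factors, 5 without the 4 libraries with most circRNAs, and 0 with an adjusted P under 0.05 (20 with reads in at least 6 libraries and 10484 without a filter). It was 3 to 7 when each library was left out. The cause was not tested. None of the 5 circRNAs of the rule was called in any of these, and 9 of the 22 members were called without a filter. The test without a filter had called most circRNAs with permuted reads in an earlier analysis, so its calls are no sign of a difference. Same-numbered libraries are of different boars, and the pairing check gave correlations of deviations of -0.04 to 0.18 with 1 of 12 pairs above 0.1, so the block carries no pairing. The log2 fold change of SEC24A exons 6 to 7 was 0.10 with the replicate block. That of TBC1D22A exons 7 to 9 turned to 0.12 without a filter, and ran from -0.177 to 0.057 over the libraries left out (above 0 without L1, L3 or L5). The log2 fold changes of PSD3 and GORASP2 kept their direction in all alternatives. Over the libraries left out, that of GORASP2 ran from 0.20 to 0.43 and that of SEC24A exons 6 to 7 from -0.49 to -0.19. For PSD3 it ran from 0.24 to 0.57 for exons 7 to 11 and from -0.42 to -0.20 for exons 7 to 10. The share of the leading circRNA at a position gave 1 to 4 positions with P under 0.05 when each library was left out and 1 without the 4 libraries with most circRNAs, against 3 of 76. Detection gave 104 circRNAs with P under 0.05 without these 4 libraries and 133 with at least 10 reads, against 133. Over the libraries left out, the share difference of GORASP2 ran from -0.19 percentage points (without H6) to 1.50, and that of TBC1D22A exons 7 to 9 from -0.32 (without H4) to 3.78. Levels relative to the reads of tested circRNAs with TMM factors were higher than RPM by construction (10037 against 5246 for TBC1D22A). At this depth, 3 reads are 4.91 to 23.3 RPM.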
